A study of Homo sapiens with 8 samples.

Results

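The genes described here are 10 members of the Wnt pathway among the 43317 genes that had a probe on the arrays. They were named by symbol: the ligands WNT5A and WNT7B, the receptor FZD7, the secreted inhibitors DKK1 and SFRP1, β-catenin (CTNNB1), its negative regulator AXIN2, the nuclear partners TCF7L2 and LEF1, and the target gene MYC. All 10 had a probe, and 5 of them had several, in which case the brightest was used. A further list of the pathway, 106 genes with a probe sorted by role and including these 10, gave the surroundings.

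Expression was measured on 8 two-colour arrays of 1 slide. In every array the mock cells of the same line, which the labels describe as not transfected, carried Cy3, and the transfected cells carried Cy5. PANC-1, a pancreatic cancer line, received si-FOXQ1-1 or si-FOXQ1-2, a pair of small interfering RNAs against the forkhead transcription factor FOXQ1. PC3, a prostate cancer line, received miR-150-5p, miR-150-3p, miR-99a-3p or miR-100-3p, and FaDu, a squamous carcinoma line of the hypopharynx, received miR-99a-5p or miR-99a-3p. Each condition had 1 array and no dye swap, so no ratio was tested, and the effects of the transfection reagent, of the RNA and of the dye cannot be told apart. A ratio is given as log2 of transfected over mock cells with the scanner's error for that spot. This error does not cover the spread between cultures. A gene counted as detected on an array when at least 1 channel was well above background in the scanner's own call.

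In the canonical Wnt pathway a secreted WNT ligand binds a Frizzled receptor and an LRP coreceptor. The cytoplasmic complex built on AXIN and APC then stops marking β-catenin for breakdown, and β-catenin joins TCF and LEF factors on DNA. AXIN2 is itself switched on by the pathway and works as feedback, DKK1 blocks the coreceptors, and SFRP1 binds the ligands. WNT5A is best known for signalling that does not use β-catenin.

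Of the 5 transfected miRNAs, 3 could be matched to a mature RefSeq sequence on GRCh38.p14. They are shown because both 3p strands were compared in PC3 and are close relatives. Capitals mark the seed, bases 2 to 8.
miR-99a-5p: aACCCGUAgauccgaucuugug
miR-99a-3p: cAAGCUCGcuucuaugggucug
miR-100-3p: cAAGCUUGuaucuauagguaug
miR-99a-5p lies at chr21:16539101-16539122 and miR-99a-3p at chr21:16539138-16539159, both on the plus strand, and miR-100-3p lies at chr11:122152240-122152261 on the minus strand. miR-99a-3p and miR-100-3p had the same base at 17 of 22 positions and at 6 of 7 seed positions.

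FOXQ1 was lowered on both siRNA arrays. Its signal was 4887 in mock cells and 1092 after si-FOXQ1-1, a log2 ratio of -2.16 (spot error 0.29). It was 4557 and 1046 with si-FOXQ1-2, a log2 ratio of -2.12 (spot error 0.28). The knockdown was thus of nearly the same size with both reagents.

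All 10 Wnt genes were detected on both FOXQ1 siRNA arrays, and 9 of them were well above background in both channels. LEF1, a nuclear partner of β-catenin, was the only one past 2-fold, and only with si-FOXQ1-1. Its signal rose from 94.2 in mock cells to 201 with si-FOXQ1-1, a log2 ratio of 1.09 (spot error 0.24). With si-FOXQ1-2 the signals were 87.5 and 123, a log2 ratio of 0.50 (spot error 0.23). LEF1 was therefore above mock with both siRNAs, with no replicate array behind either value. With normexp background correction and loess normalization the si-FOXQ1-1 value was 0.83, below 2-fold. The count of 1 of 10 above 2-fold with si-FOXQ1-1 stood beside 0.905% of all detected genes above and 3.31% below. With si-FOXQ1-2 it was 0 of 10, beside 0.412% above and 3.29% below.

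CTNNB1, the transcript of β-catenin, had signals of 2113 and 2939 with si-FOXQ1-1 and of 1964 and 2538 with si-FOXQ1-2. The log2 ratios were 0.48 (spot error 0.21) and 0.37 (spot error 0.21), above mock on both arrays and below 2-fold. A second CTNNB1 probe gave 0.33 (spot error 0.21) and, within its spot error of 0.21, 0.14. MYC, a cell growth regulator and classical target of the pathway, was slightly under mock on both, at -0.28 and -0.27 (spot error 0.21 for each). TCF7L2, the TCF factor with a broad tissue range, stayed within its spot error at -0.07 and -0.11. DKK1 was at -0.38 with si-FOXQ1-1 and at 0.28 with si-FOXQ1-2, and both exceeded the spot error of 0.21. SFRP1 was at 0.25 and -0.34, both also beyond the spot error of 0.21. FZD7 (-0.31 and 0.13) and WNT5A (0.42 and -0.05) had opposite signs too, but 0.13 and -0.05 lay within spot errors of 0.20 and 0.33, so those signs were not resolved. WNT7B was at -0.02 and -0.37 with its brightest probe, which is also listed for WNT7A, while both probes listed for WNT7B alone lay above mock with si-FOXQ1-2, at 0.23 and 0.19. AXIN2 was near background, with mock signals of 21.8 and 21.5, and its Cy5 channel was not well above background on either array. The median of the 10 genes was -0.04 with si-FOXQ1-1 and 0.04 with si-FOXQ1-2, where all detected genes had medians of -0.02 and -0.01.

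**Figure D1:**
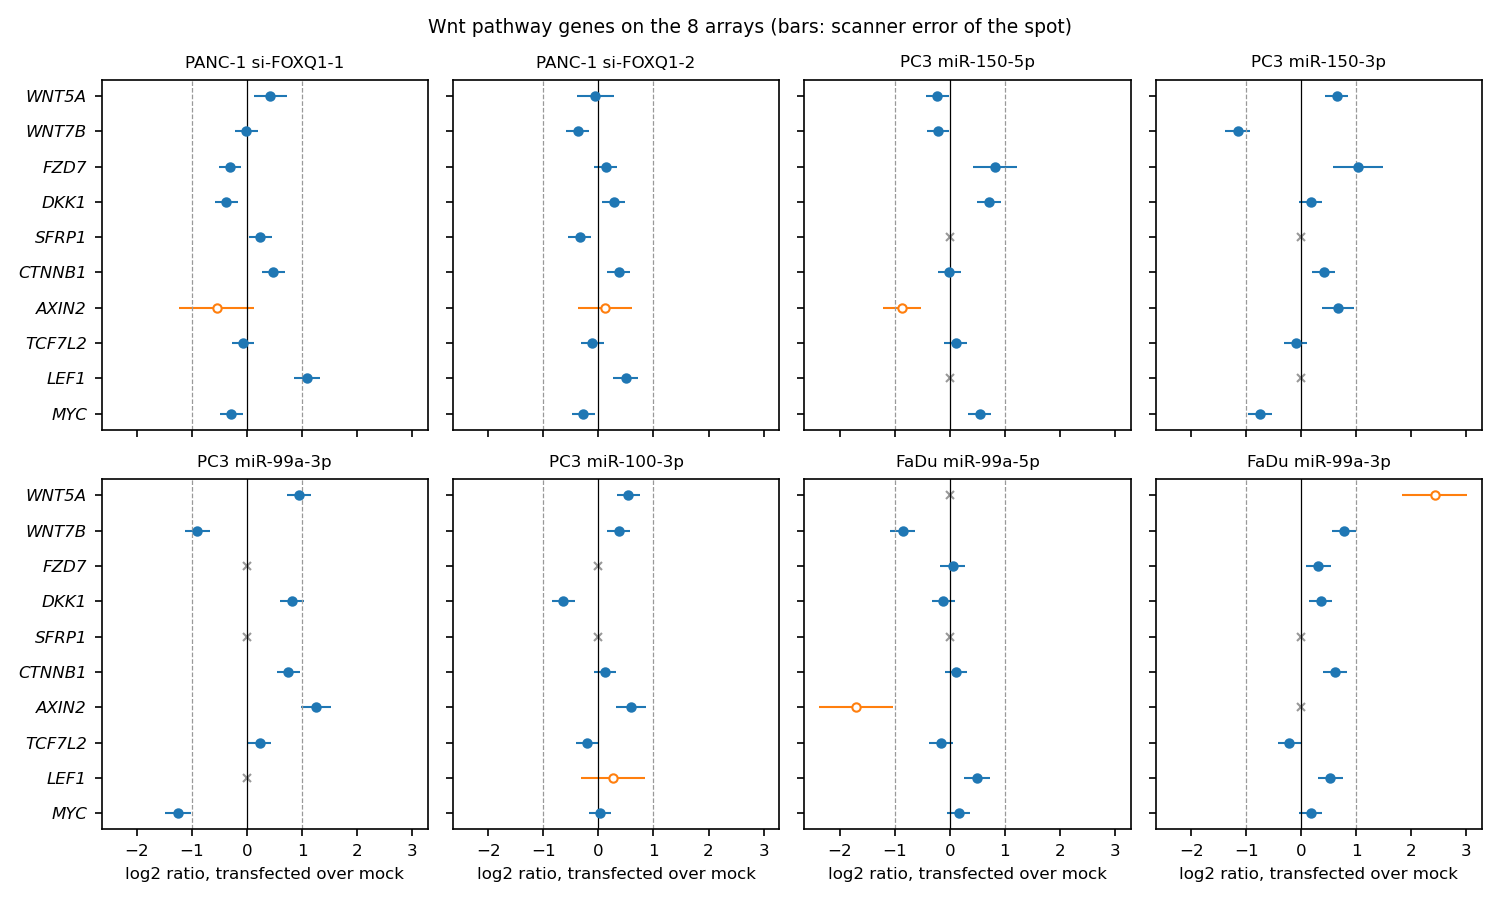
Log2 ratio of transfected over mock cells (x axis) for the 10 Wnt genes (rows) on each of the 8 arrays, with bars for the scanner error of the spot. Filled points were well above background in both channels, open points in 1, crosses at 0 mark genes well above background in neither, and dashed lines mark 2-fold. LEF1 stands at 1.09 with si-FOXQ1-1, MYC at -1.26 and AXIN2 at 1.26 with miR-99a-3p in PC3.

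Across the 8 arrays, 67 of the 80 pairs of a Wnt gene and an array were detected and 61 were well above background in both channels. Past 2-fold were 7 pairs, 4 above and 3 below. On the miR-150-5p array 0 of 8 detected genes passed, beside 0.664% of all genes above and 4.49% below. With miR-150-3p 1 of 8 passed in each direction, beside 2.69% above and 6.68% below. With miR-99a-3p in PC3 it was 1 of 7 in each direction, beside 4.23% above and 7.39% below, and with miR-100-3p 0 of 8, beside 0.987% and 3.34%. In FaDu, 1 of 8 was below with miR-99a-5p, beside 0.851% of all genes above and 4.86% below. It was AXIN2, which was detected in the mock channel alone and allowed no fold. With miR-99a-3p in FaDu 1 of 8 was above, beside 8.25% above and 9.37% below. It was WNT5A, which was detected in the transfected channel alone and allowed only a bound.

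MYC gave the largest fall among the bright members. In PC3 cells with miR-99a-3p its signal was 7652 in mock and 3198 in transfected cells, a log2 ratio of -1.26 (spot error 0.23). With miR-150-3p the signals were 11075 and 6594, a log2 ratio of -0.75 (spot error 0.22). With miR-150-5p they were 8627 and 12576, a log2 ratio of 0.54 (spot error 0.21). MYC thus lay under mock with both of these 3p strands and above it with miR-150-5p, and with miR-100-3p it was at 0.03 (spot error 0.20). In FaDu it was at 0.16 with miR-99a-5p and at 0.17 with miR-99a-3p, each within a spot error of 0.20. A second MYC probe was not well above background on any array.

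The MYC ratios in PC3 rest on mock channels that were not alike. On the log2 scale after quantile normalization, mock MYC was 13.12 and 13.18 on the miR-150-5p and miR-150-3p arrays, and 12.41 and 12.38 on the miR-99a-3p and miR-100-3p arrays. The 4 PC3 mock channels fell into these 2 pairs over all genes as well: the SD of the log2 difference was 0.191 and 0.208 within the pairs and 0.310 to 0.314 between them. Against the mean of all 4 mock channels, MYC was at -1.60 with miR-99a-3p, -0.33 with miR-150-3p, 0.88 with miR-150-5p and -0.34 with miR-100-3p. Values against a mean mock, here and below, were computed from normexp and loess values scaled between arrays. They therefore change the processing as well as the mock reference.

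AXIN2, the feedback gene, gave the largest rise among members measured in both channels. In PC3 with miR-99a-3p its signals were 94.4 and 225, a log2 ratio of 1.26 (spot error 0.27), and a second AXIN2 probe gave 1.28 (spot error 0.29). With miR-150-3p the signals were 50.2 and 79.6, a log2 ratio of 0.66, and with miR-100-3p 58.9 and 88.7, a log2 ratio of 0.59. The second probe gave 0.55 and 0.77 there, so both probes lay above mock on these 3 arrays. With miR-150-5p AXIN2 fell to a signal that was not well above background, from 49.6 to 27.2, at least 1.77-fold lower. Its log2 ratio of -0.87 became -0.44 with normexp and loess and -0.46 against the mean mock of the line. Both settings start from normexp with an offset of 50, which draws ratios of signals this dim toward 0. They therefore cannot test the 1.77-fold bound. The second probe gave -0.67 with miR-150-5p, its transfected channel also not well above background. In FaDu it was too dim to give a fold: mock signals were 35.1 and 8.10, and no transfected channel was well above background. With normexp and loess the value under miR-99a-3p in PC3 was 0.72, below 2-fold, and the values under miR-150-3p and miR-100-3p were 0.32 and 0.26.

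CTNNB1 itself was bright on every array and moved less than 2-fold on all of them. In PC3 it was at 0.75 (spot error 0.22) with miR-99a-3p, from signals of 5308 and 8946, and at 0.40 with miR-150-3p. It was at 0.12 with miR-100-3p and at -0.01 with miR-150-5p. In FaDu its ratio was 0.61 (spot error 0.21) with miR-99a-3p and 0.11 with miR-99a-5p. The highest CTNNB1 ratio in each of these lines was therefore on the miR-99a-3p array. The second CTNNB1 probe gave 0.54 in PC3 and 0.03 in FaDu with miR-99a-3p.

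TCF7L2 lay between -0.22 and 0.23 on all 8 arrays with its brightest probe, 2 of them above 0. That probe carries the TCF7L2 symbol but could be matched to no RefSeq transcript, unlike the 3 dimmer ones. No array exceeded 2 spot errors. Of the 3 dimmer TCF7L2 probes, the one at chr10:114724321-114724380 (hg19) gave 0.89 (spot error 0.26) with miR-150-5p, where the brightest gave 0.11. Another, at chr10:114911485-114911544, gave 0.69 (spot error 0.31) with miR-99a-3p in PC3, where the brightest gave 0.23 and the remaining ones 0.39 and 0.40. The probes of this gene thus did not give one value. LEF1 was detected on only 1 of the 4 PC3 arrays. In FaDu its signals were 91.0 and 128 with miR-99a-5p and 138 and 199 with miR-99a-3p. These gave log2 ratios of 0.49 (spot error 0.24) and 0.53 (spot error 0.23). LEF1 was thus above mock on all 4 arrays of PANC-1 and FaDu. Against the mean mock of the line it was at 0.29 with miR-99a-3p in FaDu, close to its spot error, and at 0.83 with si-FOXQ1-1 in PANC-1.

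DKK1, the most familiar secreted inhibitor of the pathway, was bright in all 3 lines and stayed within 2-fold on all 8 arrays. In PC3 its signal went from 38715 to 68251 with miR-99a-3p, a log2 ratio of 0.82 (spot error 0.22). It went from 24497 to 40139 with miR-150-5p, a log2 ratio of 0.71 (spot error 0.21). With miR-100-3p it went from 27785 to 17882, a log2 ratio of -0.64 (spot error 0.21). The related strands miR-99a-3p and miR-100-3p therefore gave DKK1 ratios of opposite sign in PC3, a difference with no replicate array. Against the mean of all 4 mock channels the miR-100-3p value was -0.33. DKK1 was at 0.17 with miR-150-3p, and in FaDu at -0.12 with miR-99a-5p and 0.35 with miR-99a-3p. SFRP1 was well above background only in PANC-1, and in neither channel on the 6 arrays of PC3 and FaDu.

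WNT5A in PC3 was above mock with 3 of the 4 miRNAs. The signals were 1435 and 2768 with miR-99a-3p, a log2 ratio of 0.95 (spot error 0.22). They were 795 and 1241 with miR-150-3p, a log2 ratio of 0.64, and 944 and 1373 with miR-100-3p, a log2 ratio of 0.54, with a spot error of 0.21 for both. With miR-150-5p the ratio was -0.23 (spot error 0.21). The mock channels of the 2 PC3 pairs differed in WNT5A too, at 9.36 and 9.35 against 9.97 and 9.99 on the log2 scale. Against the mean of all 4 the ratios were 1.20, 0.35, 0.85 and -0.50, in the same order of arrays. In FaDu with miR-99a-3p the WNT5A signal was 69.5 in transfected cells and 13.0, not well above background, in mock cells, at least 2.32-fold higher. With normexp and loess this array gave a log2 ratio of 0.54. With miR-99a-5p neither channel was well above background.

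FZD7, a Frizzled receptor, was near background in PC3. Its signals were 22.9 and 46.9 with miR-150-3p, a log2 ratio of 1.03 (spot error 0.46), and 22.0 and 38.7 with miR-150-5p, a log2 ratio of 0.82 (spot error 0.40). Normexp and loess lowered these values to 0.21 and 0.22. On the miR-99a-3p and miR-100-3p arrays neither channel was well above background. In FaDu it was at 0.05 with miR-99a-5p and at 0.31 with miR-99a-3p.

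WNT7B needs its probes told apart. The brightest of its 3 probes carries the WNT7B symbol, but the files assign it to transcripts of both WNT7B and its close relative WNT7A. Both WNT7B probes below are on the minus strand of chromosome 22 (hg19) and are shown because they gave different answers, the first being listed for both genes and the second for WNT7B alone.
A_33_P3256920, chr22:46318943-46319002: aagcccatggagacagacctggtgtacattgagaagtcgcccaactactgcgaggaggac
A_24_P911607, chr22:46372571-46372630: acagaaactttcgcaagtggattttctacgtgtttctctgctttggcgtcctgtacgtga
The shared probe was well above background in both channels of all 8 arrays. Its log2 ratio was -1.15 (spot error 0.23) with miR-150-3p in PC3, from signals of 921 and 414. It was -0.90 with miR-99a-3p, 0.37 with miR-100-3p and -0.22 with miR-150-5p. In FaDu it was -0.86 with miR-99a-5p and 0.78 with miR-99a-3p.

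The probe of WNT7A itself, on chromosome 3, gave -1.34 with miR-150-3p, -0.78 with miR-99a-3p, 0.50 with miR-100-3p and -0.02 with miR-150-5p in PC3. In FaDu it gave -0.29 with miR-99a-5p and 1.34 with miR-99a-3p. In PANC-1 the WNT7A probe was not well above background in either channel, whereas the shared probe had mock signals of 246 and 235. The probes listed for WNT7B alone were far dimmer in PC3, with mock signals of 15.7 to 58.0, and neither was well above background in the transfected channel on any PC3 array. On the FaDu miR-99a-3p array, where all 3 WNT7B probes were well above background in both channels, those listed for WNT7B alone gave 0.68 (spot error 0.28) and 0.76 (spot error 0.27), beside 0.78 for the shared probe. All 3 were also well above background in both channels in PANC-1, where they did not give one value. With si-FOXQ1-1 those listed for WNT7B alone gave -0.47 (spot error 0.32) and 0.15 (spot error 0.28), beside -0.02 for the shared probe. With si-FOXQ1-2 they gave 0.23 (spot error 0.27) and 0.19 (spot error 0.25), beside -0.37 (spot error 0.21). The fall of the shared probe with miR-150-3p in PC3 was therefore measured for WNT7A by its own probe but was not measurable in both channels for WNT7B alone. How much of each transcript the shared probe reads was not tested.

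**Figure D2:**
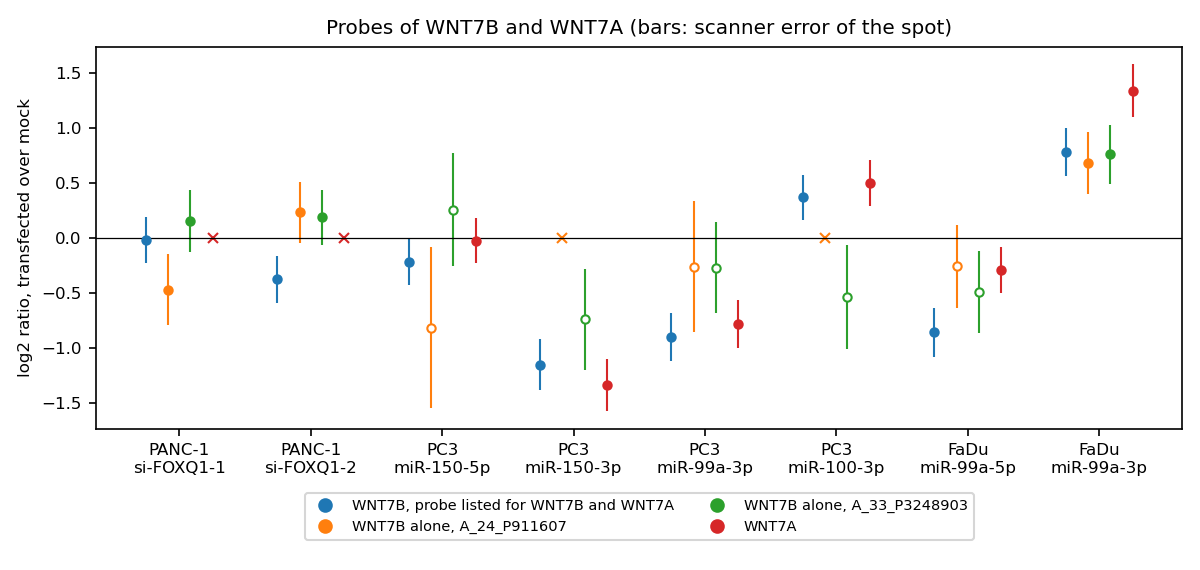
Log2 ratio of transfected over mock cells (y axis) on the 8 arrays (x axis) for the 3 WNT7B probes and the WNT7A probe, with bars for the scanner error of the spot. Filled points were well above background in both channels, open points in 1, and crosses at 0 in neither. In PC3 with miR-150-3p the shared probe (-1.15) and the WNT7A probe (-1.34) are filled, and no probe listed for WNT7B alone is.

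Among the mock cells, SFRP1, WNT5A, DKK1, FZD7 and LEF1 had the largest differences between lines, and CTNNB1, TCF7L2 and MYC small ones. Mock levels were compared with limma on the 8 Cy3 channels, 4 of PC3, 2 of FaDu and 2 of PANC-1, as log2 signal after quantile normalization. The labels do not say whether these channels are separate cultures, so the p-values measure the spread between hybridizations, which may be technical. In this comparison 7 of 10 members differed between PANC-1 and PC3, 7 between PANC-1 and FaDu and 6 between FaDu and PC3, at an adjusted p under 0.05. Over all genes tested 69.5%, 71.9% and 77.1% differed, so the members' counts were near the background. With close mock channels averaged to 1 sample, an alternative chosen after seeing the data, 8, 6 and 6 members differed, beside 48.0%, 51.1% and 60.3%.

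SFRP1, the ligand-binding inhibitor, was measured in PANC-1 only. Its mock level was 9.38 and 9.42 in PANC-1, 2.75 to 2.91 in PC3 and 2.85 and 3.02 in FaDu. The PC3 and FaDu channels were not well above background. The PANC-1 level was at least 42.7-fold higher than in PC3 (limma, adjusted p = 4.4e-09) and at least 31.3-fold higher than in FaDu (limma, adjusted p = 1.1e-08).

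WNT5A ran in another order. Its mock level was 9.35 to 9.99 in PC3, 5.70 and 5.78 in PANC-1, and 3.14 and 3.88, not well above background, in FaDu. PC3 was 15.2-fold above PANC-1 (limma, adjusted p = 1.7e-05) and at least 37.7-fold above FaDu (limma, adjusted p = 1.4e-06). PANC-1 was at least 2.48-fold above FaDu (limma, adjusted p = 0.00065).

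DKK1 was also highest in PC3, at 14.64 to 14.94, with 13.78 and 13.81 in PANC-1 and 11.05 and 11.07 in FaDu. The channels of the 3 lines did not overlap. PC3 was 1.95-fold above PANC-1 (limma, adjusted p = 5.8e-05), and PANC-1 was 6.68-fold above FaDu (limma, adjusted p = 7.6e-07).

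FZD7 was highest in PANC-1, at 10.11 and 10.16. It was 7.22 and 7.36 in FaDu and 3.03 to 4.58 in PC3, where only 2 of 4 channels were well above background. PANC-1 was 7.20-fold above FaDu (limma, adjusted p = 0.0012). LEF1 was at 6.84 in both PANC-1 channels and at 6.78 and 6.94 in FaDu, which did not differ beyond their spread (limma, adjusted p = 0.98). In PC3 it was 2.11 to 4.22, with 1 of 4 channels well above background, and the FaDu level was higher (limma, adjusted p = 0.00044), by a fold that the dim PC3 channels leave unmeasured.

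**Figure D3:**
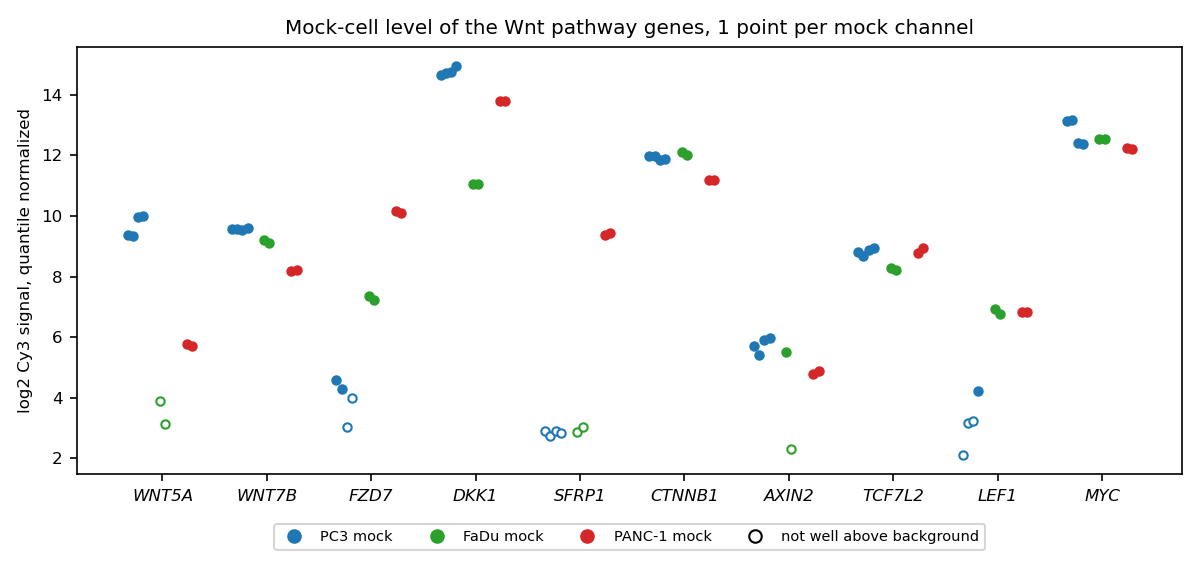
Log2 Cy3 signal after quantile normalization (y axis) of the 10 Wnt genes (x axis) in each mock channel of PC3, FaDu and PANC-1. Open circles were not well above background. SFRP1 is filled only in PANC-1, WNT5A is highest in PC3, and the 4 PC3 channels of MYC and of WNT5A fall into 2 pairs.

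The remaining members differed less. CTNNB1 was 11.20 in both PANC-1 channels, 11.86 to 11.98 in PC3 and 12.01 and 12.10 in FaDu. PANC-1 was 1.65-fold below PC3 (limma, adjusted p = 3.7e-05) and 1.81-fold below FaDu (limma, adjusted p = 3.2e-05), and FaDu and PC3 did not differ beyond their spread (limma, adjusted p = 0.081). TCF7L2, read by the probe that could be matched to no RefSeq transcript, was 8.68 to 8.93 in PC3, 8.77 and 8.93 in PANC-1 and 8.21 and 8.28 in FaDu. FaDu was 1.49-fold below PC3 (limma, adjusted p = 0.00073) and 1.53-fold below PANC-1 (limma, adjusted p = 0.0013). The call against PANC-1 was lost with close channels averaged (adjusted p = 0.060). MYC passed in no pair of lines (limma, adjusted p = 0.10 to 0.45), although PANC-1 minus PC3, at -0.54, passed at -0.68 without the mock channel of the miR-100-3p array, and its 4 PC3 channels alone ranged from 12.38 to 13.18. AXIN2, with 1 of 2 FaDu channels well above background, passed in none (limma, adjusted p = 0.064 to 0.38). With close channels averaged it passed between FaDu and PC3 (adjusted p = 0.0085) and between PANC-1 and PC3 (adjusted p = 0.048).

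The order of WNT7B across the lines depended on the probe. The shared probe was 9.52 to 9.60 in PC3, 9.12 and 9.21 in FaDu and 8.17 and 8.21 in PANC-1, and PC3 was 2.58-fold above PANC-1 (limma, adjusted p = 8.4e-07). The brighter probe listed for WNT7B alone had mean levels of 4.98 in PC3, 6.15 in FaDu and 6.35 in PANC-1. With it, PANC-1 was above PC3 by 1.37 on the log2 scale (limma, adjusted p = 0.0014) and FaDu above PC3 by 1.17 (limma, adjusted p = 0.0026), the opposite direction, in a comparison added after seeing the data. PANC-1 and FaDu did not differ beyond their spread with it (limma, adjusted p = 0.52). The WNT7A probe was 9.26 to 9.41 in PC3, 8.53 and 8.73 in FaDu, and not well above background in PANC-1.

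The lines were checked against their defining markers. The squamous markers TP63, KRT5, KRT14 and KRT6A were well above background in 8 of 8 gene and channel pairs of FaDu, 0 of 8 of PANC-1 and 2 of 16 of PC3. KLK3, the prostate-specific antigen gene, was not well above background in PC3, and PDX1, a pancreatic factor, was not in any line.

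The further list of the pathway gives the setting for these members. On the PANC-1 arrays it held 1 gene above and 0 below 2-fold of 75 detected with si-FOXQ1-1, the member LEF1. With si-FOXQ1-2 it held 0 above and 1 below of 75. The lowest genes outside the members that were measured in both channels were APC2 (-0.72) and DVL2 (-0.58) with si-FOXQ1-1, and WNT6 (-0.83) and CTNNBIP1 (-0.76), which encodes an inhibitor of β-catenin binding to TCF, with si-FOXQ1-2. The highest were RNF43 (0.81), a ligase that removes Frizzled receptors, and DAAM1 (0.71) with si-FOXQ1-1, and TLE4 (0.82), a corepressor of TCF factors, and PRICKLE1 (0.79) with si-FOXQ1-2. None of these 8 passed 2-fold.

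In PC3, miR-150-3p had 4 genes of the list above and 7 below of 72 detected (5.56% and 9.72%), beside 2.69% and 6.68% of all detected genes. Among listed genes outside the members and measured in both channels, to which the extremes named here and for the other arrays are limited, WLS, which carries WNT ligands to the cell surface, was the lowest at -1.67 (spot error 0.26), followed by WNT7A. BAMBI (1.50) and MMP7 (1.21), both known targets of the pathway, were the highest. With miR-99a-3p 8 were above and 3 below of 72, beside 4.23% and 7.39% of all detected genes, and here WLS was at 1.48 (spot error 0.25), so that its sign was the opposite of that with miR-150-3p. BAMBI was the highest at 2.03 and the target SP5 the lowest at -1.13, with the member MYC lower still. With miR-150-5p BAMBI (1.27) was again the highest and SP5 (-1.32) the lowest, 1 gene being above and 2 below of 72. With miR-100-3p 0 of 74 genes passed in either direction, the extremes being KREMEN2 (-0.94), WNT3 (-0.93), WNT4 (0.89) and TLE4 (0.59).

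In FaDu cells with miR-99a-3p 17 genes of the list were above 2-fold and 3 below of 75 detected (22.7% and 4%), beside 8.25% and 9.37% of all detected genes. Both of the latter shares were the highest of the 8 arrays. Of those outside the members and measured in both channels, KREMEN2, a receptor for DKK proteins, was the highest at 2.49 (spot error 0.31), and LGR4, a receptor for R-spondins, was next at 2.13 (spot error 0.30). PORCN, which acylates WNT ligands for secretion, was the lowest of these at -1.11 (spot error 0.23). With normexp and loess 9 genes in all were past 2-fold on this array instead of 20. The share of all genes at that setting is not given, so the 9 cannot be compared with the background. With miR-99a-5p 0 were above and 4 below of 72, and none of the 4 was well above background in both channels. The extremes outside the members and measured in both channels there were LGR6 (-0.69), TLE3 (-0.57), WLS (0.76) and KREMEN2 (0.65).

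Dim genes weigh on these counts, so they were repeated over genes well above background in both channels. On the FaDu miR-99a-3p array 13 of 67 listed genes were above 2-fold and 1 below, beside 7.68% of all such genes above and 5.48% below. With miR-99a-3p in PC3 it was 7 above and 2 below of 68, beside 4.18% and 3.99%, and with miR-150-3p 4 above and 5 below of 69, beside 2.62% and 2.28%. The listed genes thus lay above the background share in the upward direction on all 3 arrays, and in the downward direction with miR-150-3p but not with miR-99a-3p in either line, as a description of 1 array each. With miR-150-5p it was 1 in each direction of 68, beside 0.630% and 0.783%, and with miR-100-3p 0 of 69, beside 0.944% and 0.334%. With miR-99a-5p it was 0 of 65, beside 0.894% and 0.165%. In PANC-1 it was 1 above and 0 below of 70 with si-FOXQ1-1, beside 0.883% and 0.366%, and 0 of 71 with si-FOXQ1-2, beside 0.344% and 0.374%. The counts of 0 or 1 on the arrays outside those 3 are too small to place above or below a share.

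**Figure D4:**
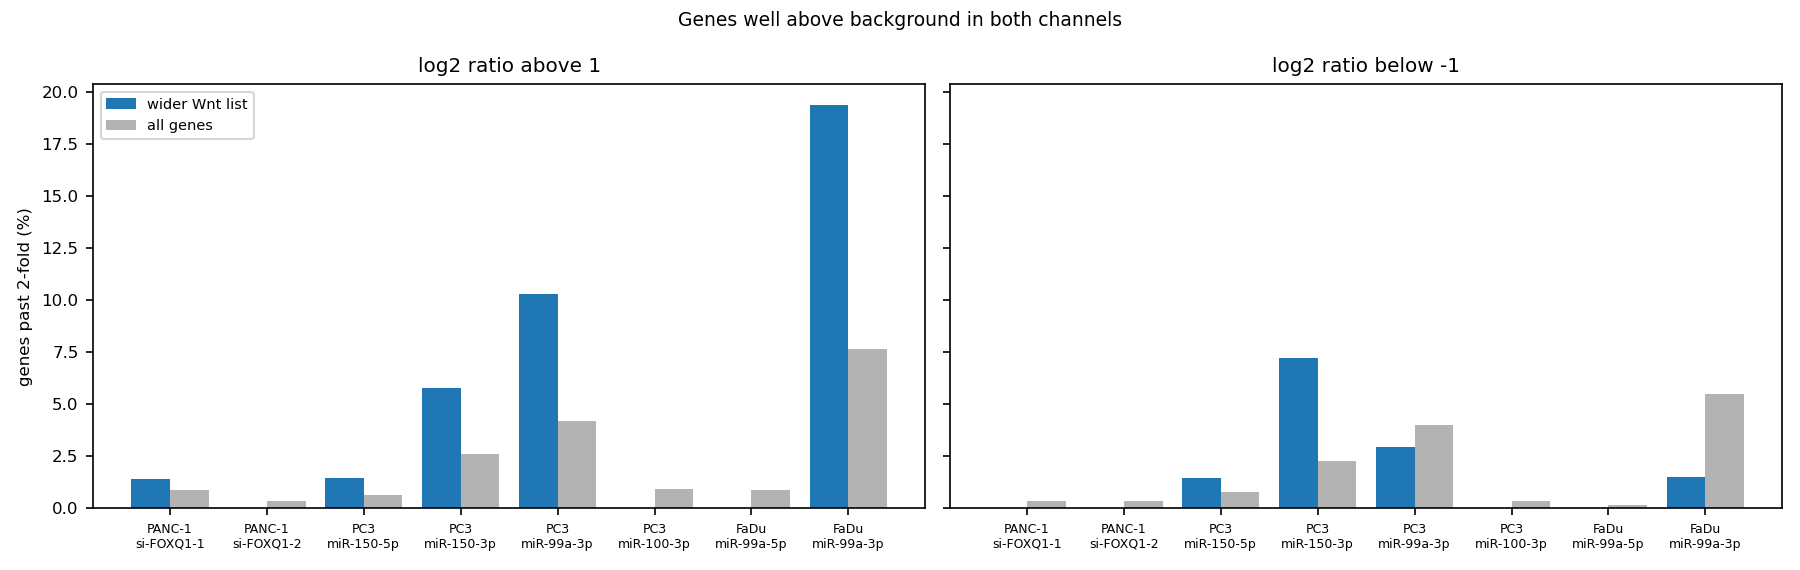
Share of genes (y axis, percent) with a log2 ratio above 1 (left) or below -1 (right) on each array, for the further list of Wnt pathway genes (blue) and for all genes (grey), each counted over genes well above background in both channels. The FaDu miR-99a-3p array has 13 of 67 listed genes above 2-fold, beside 7.68% of all genes.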

How the data were processed

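RNA of mock and transfected cells was hybridized together, mock in Cy3 and transfected in Cy5, on 1 array per condition. The authors processed the scans with Agilent Feature Extraction 10.7.3.1 (submitters' processing notes and file headers). The deposited signals are intensities, corrected for background and for dye by the scanner software one array at a time, not scaled between arrays, and the deposited log10 ratios are Cy5 over Cy3 of the same run. The values deposited for the whole series equalled the scanner ratios (largest difference 0). Positions are those of the files, on hg19.

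Log10 ratios were converted to log2, flagged outlier spots (81 to 178 per array) and control spots were left out, and spots of a probe were averaged. The probe with the brightest mean signal stood for its gene, which reduced 58201 probes to 43317 genes. The share of gene spots well above background was 44.5% to 49.2% in Cy3 and 37.2% to 41.8% in Cy5, and 0 spots were saturated. The number of arrays limits the precision. A gene not well above background in 1 channel received a bound from the lowest signal well above background on that array. Mock levels were log2 Cy3 intensities, quantile normalized and fitted with limma 3.58.1 in R 4.3.3 (lmFit, eBayes, Benjamini-Hochberg over 21516 genes). The procedure was tested on simulated data of 200 changed genes for PANC-1 against PC3. Of these, 71% were recovered at 2-fold and 94% at 4-fold, and 4.07% of the calls were false. The simulated channels were independent, whereas the PC3 mock channels fell into 2 pairs, so these rates do not cover that dependence.

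The genes named are the members, FOXQ1 as a check of the labels, and on each array the 2 lowest and 2 highest other genes of the wider list measured in both channels. WNT7A was added after its values were seen, because of the shared probe. Members and lists were chosen with earlier results of these data known. Alternatives were normexp (offset 50) with loess, the series values, the mean over probes, outlier spots kept, the mean mock of the line, other detection filters, thresholds of 0.58 and 2, 75th percentile scaling and leaving out each mock channel. Averaged close mock channels and probes not listed for several genes were added after seeing the data.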

Additional observations from a re-analysis of the deposited data

Results flagged for a closer look

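The miR-99a-3p strand was given to both PC3 and FaDu, and 3 members measured in both channels had opposite signs in the 2 lines. MYC was at -1.26 in PC3 and at 0.17 in FaDu, the latter within its spot error. WNT7B, read by the probe that is also listed for WNT7A, was at -0.90 in PC3 and at 0.78 in FaDu. TCF7L2, read by the probe that could be matched to no RefSeq transcript, was at 0.23 in PC3 and at -0.22 in FaDu, both about the size of its spot error. With 1 array per line these differences were not tested.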

How the results depend on the processing

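No paired analysis was possible because there is a single array for every condition. The series values and kept outlier spots moved no count or median of the members or of the wider list, and counts of members that differed in mock level moved under no alternative by over 1.5 times. Counts past 2-fold and past the other thresholds moved as follows, and the cause was not tested. The share of all genes is given only for the main setting and with both channels required. The other counts below therefore cannot be set against a background and do not show an excess or a lack of Wnt genes.

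With normexp and loess the members past 2-fold were 0 with si-FOXQ1-1, 1 with miR-150-3p, 0 with miR-99a-5p and 0 with miR-99a-3p in FaDu. The wider list then had 0 with si-FOXQ1-1, 0 with si-FOXQ1-2, 1 with miR-150-5p, 5 with miR-150-3p, 6 with miR-99a-3p in PC3, 0 with miR-99a-5p and 9 with miR-99a-3p in FaDu. Against the mean mock of the line the member counts were 0 with si-FOXQ1-1, 1 with miR-150-3p and 0 on both FaDu arrays, and the wider list had 0 on both siRNA arrays, 1 with miR-150-5p, 5 with miR-150-3p, 0 with miR-99a-5p and 8 with miR-99a-3p in FaDu. AXIN2 with miR-99a-5p turned from -1.71 to 0.054 there. With both channels required, members were 0 on both FaDu arrays and the wider list 0 with si-FOXQ1-2 and 0 with miR-99a-5p. With the mean over probes, members were 1 with miR-150-5p, 1 with miR-150-3p, 1 with miR-99a-3p in PC3 and 0 with miR-99a-5p, and the wider list was 1 with miR-100-3p. With probes not listed for several genes, members were 1 with miR-150-3p.

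With no filter on dim probes the member median was 0.033 with miR-150-3p and 0.49 with miR-99a-3p in PC3, and the wider list had 4 with each siRNA, 1 with miR-100-3p and 8 with miR-99a-5p. At a threshold of 0.58 the wider list had 7 with si-FOXQ1-1, 12 with si-FOXQ1-2, 13 with miR-150-5p, 24 with miR-150-3p, 36 with miR-99a-3p in PC3, 10 with miR-100-3p, 10 with miR-99a-5p and 36 with miR-99a-3p in FaDu. Members were 3 with miR-150-5p, 5 with miR-150-3p, 6 with miR-99a-3p in PC3, 2 with miR-100-3p, 2 with miR-99a-5p and 3 with miR-99a-3p in FaDu. At a threshold of 2 members were 0 with si-FOXQ1-1, 0 with miR-150-3p, 0 with miR-99a-3p in PC3 and 0 with miR-99a-5p, and the wider list had 0 on both siRNA arrays, 0 with miR-150-5p and miR-150-3p, 2 with miR-99a-3p in PC3, 1 with miR-99a-5p and 4 with miR-99a-3p in FaDu.

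Mock WNT7B reversed with the mean over probes, to 0.69 for PANC-1 minus PC3 and 0.88 for FaDu minus PC3. With the probe listed for WNT7B alone the differences were 1.37 and 1.17, and 0.20 for PANC-1 minus FaDu. Its call between FaDu and PC3 was lost with close channels averaged (adjusted p = 0.072). Without the FaDu miR-99a-5p mock channel the AXIN2 difference for FaDu minus PC3 went from -1.86 to -3.46 and passed, but FaDu then rests on 1 channel that is not well above background and is assumed to vary like the other lines, so its size is not a measured one. Dim channels limit AXIN2, FZD7, LEF1 and WNT5A outside the lines where they are bright.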
